A study of Mus musculus with 6 samples.

Results

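In all, 9 long noncoding RNAs were followed in coronary endothelial cells (ECs) with and without endothelial *Wt1*: the nuclear-retained RNAs *Malat1* and *Neat1*, and the snoRNA host genes *Gas5*, *Snhg1*, *Snhg3*, *Snhg5*, *Snhg6*, *Snhg8* and *Snhg12*. They were chosen by symbol, and all 9 of 9 were found among the 55416 genes of the count table, with 2 in the nuclear class and 7 in the host class. RNA came from mGFP-positive cells sorted by FACS from ventricles of E15.5 mouse hearts, with 3 libraries per genotype. *ControlΔEC* embryos were Pdgfb-CreERT2/+; Wt1 +/+; R26-mTmG/+, and *Wt1KOΔEC* embryos were Pdgfb-CreERT2/+; Wt1 loxP/loxP; R26-mTmG/+. Both genotypes therefore carried the Cre and the reporter, and the genotypes differed by the floxed *Wt1* alleles. The dams of both were gavaged with tamoxifen (75 mg/kg) between E11.5 and E13.5. Library identifiers began with AT for all *ControlΔEC* and with AU for all *Wt1KOΔEC* libraries, and what these prefixes stand for is not given. A difference that goes with the prefix cannot be told apart from one of genotype. The mGFP reports recombination at R26 and not at *Wt1* itself, Cre activity followed the *Pdgfb* promoter, and neither the strain nor the number of hearts behind each library is given in the sources used here.

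*Malat1* is one of the most abundant nuclear RNAs and is concentrated in nuclear speckles, bodies that store splicing factors. *Neat1* is the scaffold of paraspeckles, nuclear bodies built around the proteins SFPQ and NONO, and its short isoform is polyadenylated while its long isoform ends, as *Malat1* does, in an RNA triple helix. SnoRNA hosts work differently: box C/D or box H/ACA snoRNAs, which guide the modification of ribosomal RNA, are cut out of their introns, and the spliced exons are exported and are commonly degraded by nonsense-mediated decay during translation. Many hosts start with a 5′ terminal pyrimidine tract, as ribosomal protein mRNAs do, and *Gas5* owes its name (growth arrest specific) to its higher level in cells that stop growing.

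The sequences that set the classes apart are the 3′ ends of the nuclear RNAs and the snoRNAs inside the hosts. Both stretches below are from GRCm39, with both U-rich motifs and the A-rich tract of the triple helix in capitals.
*Malat1* 3′ end, chr19:5846010-5846097, minus strand: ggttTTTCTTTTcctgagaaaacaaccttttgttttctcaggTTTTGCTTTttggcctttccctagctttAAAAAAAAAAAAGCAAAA
*Neat1* 3′ end, chr19:5874736-5874829, minus strand: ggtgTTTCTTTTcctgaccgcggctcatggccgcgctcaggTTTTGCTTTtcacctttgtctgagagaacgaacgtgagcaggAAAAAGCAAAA
Each A-rich tract, of 18 bases in *Malat1* and 11 in *Neat1*, is encoded in the genome and follows the second U-rich motif after 19 and 33 bases. The libraries were primed with oligo-dT, whereas mature *Malat1* and the long form of *Neat1* carry no poly(A) tail, so the counts measure whatever was copied from these RNAs with that primer. The *Neat1* stretch ended at the last annotated base of the gene, and the *Malat1* stretch ended 293 bases before it.

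The hosts held 27 annotated snoRNA loci, with 9 in *Gas5*, 8 in *Snhg1*, 4 in *Snhg12*, 2 each in *Snhg3* and *Snhg5* and 1 each in *Snhg6* and *Snhg8*. Of these, 16 matched box C/D letters and 5 matched an H/ACA end. One snoRNA of each of 3 hosts is shown to give both types, with box C (TGATGA) and box D (CTGA) or the ACA box in capitals, from GRCm39.
*Snord47* of *Gas5*, chr1:160865652-160865728, plus strand: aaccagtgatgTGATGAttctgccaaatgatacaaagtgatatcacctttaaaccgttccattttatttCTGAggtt
*Snord50a* of *Snhg5*, chr9:88403582-88403653, minus strand: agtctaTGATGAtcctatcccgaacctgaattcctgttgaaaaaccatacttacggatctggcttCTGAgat
*Snora24* of *Snhg8*, chr3:123301586-123301715, minus strand: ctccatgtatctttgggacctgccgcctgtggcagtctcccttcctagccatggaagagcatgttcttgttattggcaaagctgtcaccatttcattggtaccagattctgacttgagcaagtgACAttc
All 27 loci together received 3 counts over the 6 libraries, all of them in the snoRNAs of *Snhg3*, so the snoRNAs have next to no counts of their own. Most of these loci lie within annotated exons of unspliced or intron-retaining host models, and reads over introns or snoRNA sequence may have been counted to the host.

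RefSeq promoters were matched for 7 of the 9 genes, and *Neat1* and *Snhg6* had no entry. Windows from 45 bases before to 25 bases after the start (GRCm38.p6 coordinates) are printed for the hosts in which a TATA-like box (TATAAA or TATATA) lay between 45 and 16 bases before the start, in capitals together with the pyrimidine tract at the start, and for *Malat1* to compare.
*Gas5* promoter, chr1:161035121-161035190, plus strand: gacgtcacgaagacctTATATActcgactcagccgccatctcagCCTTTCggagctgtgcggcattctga
*Snhg5* promoter, chr9:88522873-88522942, minus strand: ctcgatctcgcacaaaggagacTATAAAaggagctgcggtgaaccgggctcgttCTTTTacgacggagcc
*Snhg8* promoter, chr3:123508312-123508381, minus strand: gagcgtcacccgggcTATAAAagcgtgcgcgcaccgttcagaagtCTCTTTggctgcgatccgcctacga
*Snhg12* promoter, chr4:132308633-132308702, plus strand: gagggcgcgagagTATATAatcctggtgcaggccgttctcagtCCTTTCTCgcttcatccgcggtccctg
*Malat1* promoter, chr19:5802648-5802717, minus strand: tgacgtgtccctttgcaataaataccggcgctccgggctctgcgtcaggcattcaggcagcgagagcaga
A tract was C followed by at least 4 further C or T, and it counted as at the start if it touched the 5 bases before to the 10 after the start. A TATA-like box was present in 2.96% of all RefSeq promoters, such a tract in 29.2% and both in 1.01%. The downstream promoter of *Gas5* and those of *Snhg5*, *Snhg8* and *Snhg12* had both, but the tract of *Snhg5* lay downstream of the start and did not cover it. *Snhg3* had a tract without the box, and *Snhg1*, *Malat1* and the upstream promoter of *Gas5* had neither. WT1 consensus letters were searched on both strands of the whole RefSeq entries, from 250 bases before to 50 bases after the start, which are longer than the stretches printed. GCGGGGGCG was in none of the entries of these genes (2.91% of all promoters), and GCGTGGGAG was in that of *Snhg5* alone (0.472% of all promoters), outside its printed stretch. These motifs and windows were chosen after the sequences had been seen, and a match of letters is a description of the sequence only.

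Both nuclear-retained RNAs were at lower levels in *Wt1KOΔEC* ECs, by 1.92-fold for *Malat1* and 4.12-fold for *Neat1* on the fitted scale, while the differences of the snoRNA hosts were small and spread around 0. Levels are given as CPM, for which counts are scaled to the library total times its TMM factor, and fold changes as *Wt1KOΔEC* over *ControlΔEC*. None of the 9 RNAs was called by edgeR's quasi-likelihood test (adjusted p under 0.05 together with a log2 fold change beyond 0.58 in either direction), a rule that called 12 of the 16296 genes tested (0.0736%). At an unadjusted p under 0.05 from edgeR, 2 of the 9 RNAs differed, *Malat1* and *Neat1*, beside 13.1% of all genes tested. Both were lower in *Wt1KOΔEC*, beside 7.12% of all genes in that direction. Of 30 other lncRNA genes with a mean of at least 10 CPM, 10 (33.3%) had such a p, 6 lower and 4 higher. Among the 9 RNAs, *Gas5* also had such a p without *ControlΔEC* replicate 1 (log2 fold change -0.56, unadjusted p = 0.00810 and adjusted p = 0.265 from edgeR). The same held for *Gas5* with library size in place of TMM (-0.54, unadjusted p = 0.0356 and adjusted p = 0.299 from edgeR). DESeq2, the tool named in the study's methods, called *Malat1* and *Neat1* and no host. Beside this, it called 3.15% of the 24325 genes for which it gave an unadjusted p. Without the filter on low counts edgeR also called this pair, with adjusted p-values of 0.0102 for *Malat1* and 0.00181 for *Neat1*. All 9 RNAs passed the filter on low counts, with between 107 and 57974 counts per library.

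*Malat1* (ENSMUSG00000092341.4; GRCm39 chr19:5845717-5853602, minus strand, annotated as 1 merged exon of 7886 bases) was at 986, 1175 and 1223 CPM in *ControlΔEC* replicates 1, 2 and 3, and at 577, 468 and 721 CPM in *Wt1KOΔEC* replicates 1, 2 and 3. Every *ControlΔEC* library was above every *Wt1KOΔEC* library, a separation in this direction that 8.97% of all genes tested had. The means were 1128 ± 125 CPM in *ControlΔEC* and 589 ± 127 CPM in *Wt1KOΔEC* (SD, n = 3 each), and the log2 fold change was -0.94 (standard error 0.19, 95% interval -1.36 to -0.52, unadjusted p = 0.000669 and adjusted p = 0.114 from edgeR). DESeq2 gave an adjusted p of 0.000177. A two-sided exact permutation test over the libraries gave p = 0.1, which is the lowest value that groups of 3 and 3 can reach.

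*Neat1* (ENSMUSG00000092274.4; GRCm39 chr19:5874736-5897132, minus strand, 1 merged exon of 22397 bases) lies 21133 bases from *Malat1* on the same strand. It was at 28.7, 88.8 and 111.5 CPM in *ControlΔEC* replicates 1, 2 and 3, and at 9.41, 16.8 and 29.4 CPM in *Wt1KOΔEC* replicates 1, 2 and 3. The genotypes overlapped, because *ControlΔEC* replicate 1 was slightly below *Wt1KOΔEC* replicate 3. The mean was 76.3 ± 42.8 CPM in *ControlΔEC* and 18.5 ± 10.1 CPM in *Wt1KOΔEC* (SD, n = 3 each), and the log2 fold change was -2.04 (standard error 0.53, 95% interval -3.23 to -0.85, unadjusted p = 0.00367 and adjusted p = 0.206 from edgeR; adjusted p = 0.00323 from DESeq2). Within a genotype *Neat1* was the most variable of the 9 RNAs, with an SD of 1.05 on the log2 scale in *ControlΔEC* and 0.82 in *Wt1KOΔEC*, where *Malat1* had 0.17 and 0.31. The exact permutation test gave p = 0.2 (two-sided).

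*Gas5* (ENSMUSG00000053332.14; GRCm39 chr1:160861793-160866118, plus strand) had the largest difference in the downward direction among the hosts. It was at 96.3, 149 and 154 CPM in *ControlΔEC* replicates 1, 2 and 3, and at 102, 94.5 and 111 CPM in *Wt1KOΔEC* replicates 1, 2 and 3. *ControlΔEC* replicate 1 lay among the *Wt1KOΔEC* values, and the other two control libraries lay above them. The log2 fold change was -0.38 (standard error 0.20, 95% interval -0.83 to 0.07, adjusted p = 0.477 from edgeR), and this interval overlaps that of *Malat1*. Within each library, the ratio of *Malat1* to *Gas5* CPM was 10.2, 7.87 and 7.96 in *ControlΔEC* and 5.66, 4.95 and 6.52 in *Wt1KOΔEC*, without overlap.

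*Snhg8* (ENSMUSG00000104960.2; GRCm39 chr3:123301192-123302578, minus strand), host of the H/ACA snoRNA *Snora24* shown above, differed in the opposite direction. Its level was 10.3, 9.87 and 8.11 CPM in *ControlΔEC* replicates 1, 2 and 3, and 12.3, 11.0 and 13.0 CPM in *Wt1KOΔEC* replicates 1, 2 and 3. It was the only one of the 9 RNAs with every *Wt1KOΔEC* library above every *ControlΔEC* library, which 10.3% of all genes tested showed. The log2 fold change of 0.36 (standard error 0.28, 95% interval -0.28 to 1.00) did not pass either threshold in edgeR (unadjusted p = 0.238, adjusted p = 0.682).

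*Snhg1* (ENSMUSG00000108414.2; GRCm39 chr19:8700319-8703812, plus strand), which hosts 8 snoRNA loci, was at 20.7, 29.1 and 23.7 CPM in *ControlΔEC* and at 22.2, 22.9 and 27.5 CPM in *Wt1KOΔEC*. *Snhg5* (ENSMUSG00000097195.11; GRCm39 chr9:88377321-88405615, minus strand), host of *Snord50a* and *Snord50b*, was at 33.0, 31.5 and 38.3 CPM in *ControlΔEC* and at 34.3, 29.1 and 37.3 CPM in *Wt1KOΔEC*. The genotypes overlapped for both, with log2 fold changes of -0.02 for *Snhg1* (95% interval -0.53 to 0.49) and -0.03 for *Snhg5* (95% interval -0.48 to 0.42). A change of the size fitted for *Malat1* lies outside both of these intervals.

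*Snhg3*, *Snhg6* and *Snhg12* were the 3 hosts with the fewest counts, at a mean between 4.55 and 4.69 CPM in *ControlΔEC*. *Snhg3* (ENSMUSG00000085241.8; GRCm39 chr4:132075325-132080997, minus strand), host of *Snora73a* and *Snora73b*, was at 6.41, 3.79 and 3.81 CPM in *ControlΔEC* and at 5.12, 4.91 and 5.38 CPM in *Wt1KOΔEC*. *Snhg6* (ENSMUSG00000098234.8; GRCm39 chr1:9926809-10014504, minus strand), host of *Snord87*, was at 4.33, 4.38 and 5.37 CPM in *ControlΔEC* and at 3.48, 3.85 and 4.79 CPM in *Wt1KOΔEC*. *Snhg12* (ENSMUSG00000086290.10; GRCm39 chr4:132035905-132038762, plus strand), host of *Snora16a*, *Snora44*, *Snora61* and *Snord99*, was at 4.94, 4.70 and 4.02 CPM in *ControlΔEC* and at 4.40, 5.25 and 4.23 CPM in *Wt1KOΔEC*. The genotypes overlapped for each of the 3. Their log2 fold changes were 0.14 for *Snhg3* (95% interval -0.89 to 1.16), -0.22 for *Snhg6* (-1.28 to 0.84) and 0.02 for *Snhg12* (-0.99 to 1.03). A decrease of the size fitted for *Malat1* (-0.94) is inside the intervals of *Snhg6* and *Snhg12*. It is slightly outside that of *Snhg3*, which holds an increase of that size.

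**Figure D1:**
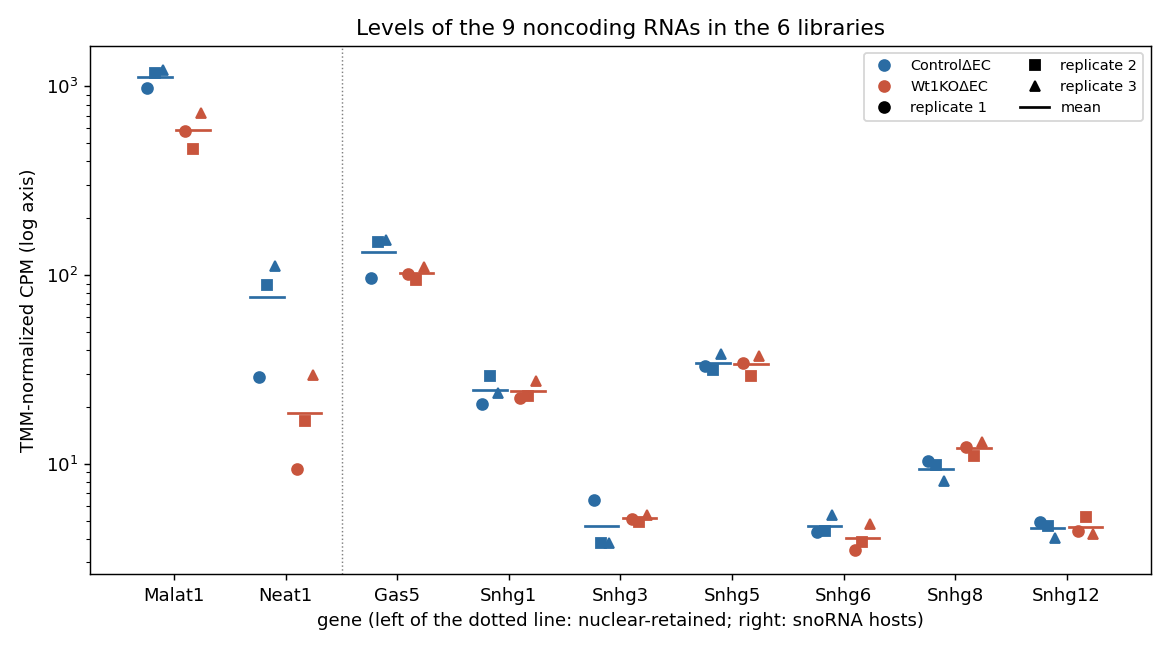
Level of each RNA (TMM-normalized CPM, log axis) in the 3 *ControlΔEC* libraries (blue) and the 3 *Wt1KOΔEC* libraries (red), with the replicate number as the symbol and the mean as a bar. The *Malat1* points separate by genotype, the *Neat1* points are spread widely and touch between 28.7 and 29.4 CPM, and most hosts have means side by side.

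By class, the median log2 fold change was -1.49 over the nuclear RNAs and -0.02 over the 7 hosts, beside -0.03 over all 16296 genes tested and -0.22 over the 1050 lncRNA genes among them. The hosts' median was 1.47 higher on the log2 scale than that of the nuclear RNAs. A separate quantity is the median log2 level of the hosts minus that of the nuclear RNAs within each library. It averaged -4.86 in *ControlΔEC* and -3.03 in *Wt1KOΔEC*, and its SD between libraries of a genotype was 0.62. The contrast in class rests on 2 nuclear RNAs that are neighbours on chromosome 19. Summed over the 7 hosts, the level was 176, 233 and 237 CPM in *ControlΔEC* replicates 1, 2 and 3, and 184, 172 and 203 CPM in *Wt1KOΔEC* replicates 1, 2 and 3, which overlap. The ratio of this sum to *Malat1* was 0.179, 0.198 and 0.194 in *ControlΔEC* and 0.318, 0.367 and 0.281 in *Wt1KOΔEC*, so that every *Wt1KOΔEC* library had more host RNA per *Malat1* than every control library. *Gas5* was the larger part of the host sum in each library. The ratio is therefore largely the inverse of that of *Malat1* to *Gas5* above, and not a separate result. The ratio of *Malat1* to *Neat1* CPM, in contrast, overlapped, at 34.4, 13.2 and 11.0 in *ControlΔEC* and 61.3, 27.8 and 24.5 in *Wt1KOΔEC*.

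**Figure D2:**
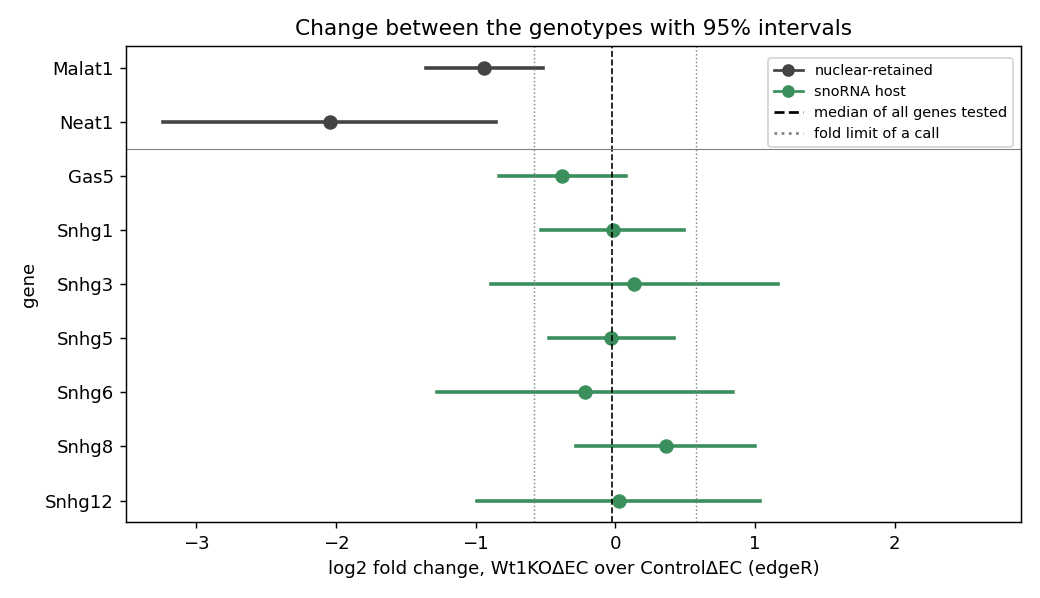
Log2 fold change of each RNA with its 95% interval from edgeR, nuclear-retained RNAs in grey above the line and snoRNA hosts in green below it; the dashed line is the median of all genes tested (-0.03) and the dotted lines are the fold limit of a call (0.58 in either direction). The intervals of *Malat1* (-1.36 to -0.52) and *Neat1* (-3.23 to -0.85) lie below 0, and those of all 7 hosts include 0.

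The shares of counts from mitochondrial genes and from *Rn18s* also differed between the genotypes. The 6 libraries held between 26037324 and 44779020 counts, in which 3 counts, the floor of detection, correspond to between 0.0608 and 0.119 CPM. Mitochondrially encoded genes took 6.41, 6.61 and 5.21% of the counts in *ControlΔEC* replicates 1, 2 and 3 and 1.68, 2.78 and 4.57% in *Wt1KOΔEC* replicates 1, 2 and 3, and the ribosomal RNA gene *Rn18s* took 14.3, 13.2 and 15.3% and 26.5, 23.0 and 21.1%. Without *Rn18s* and the mitochondrial genes in the fit the log2 fold change was -0.94 for *Malat1* and -2.04 for *Neat1*, as with them. That fit leaves out these genes only, and the part of the differences between libraries in the result was not tested. *Wt1* itself was at between 109.5 and 149 CPM in *ControlΔEC* and between 14.0 and 21.3 CPM in *Wt1KOΔEC* (adjusted p = 0.00319 from edgeR).

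**Figure D3:**
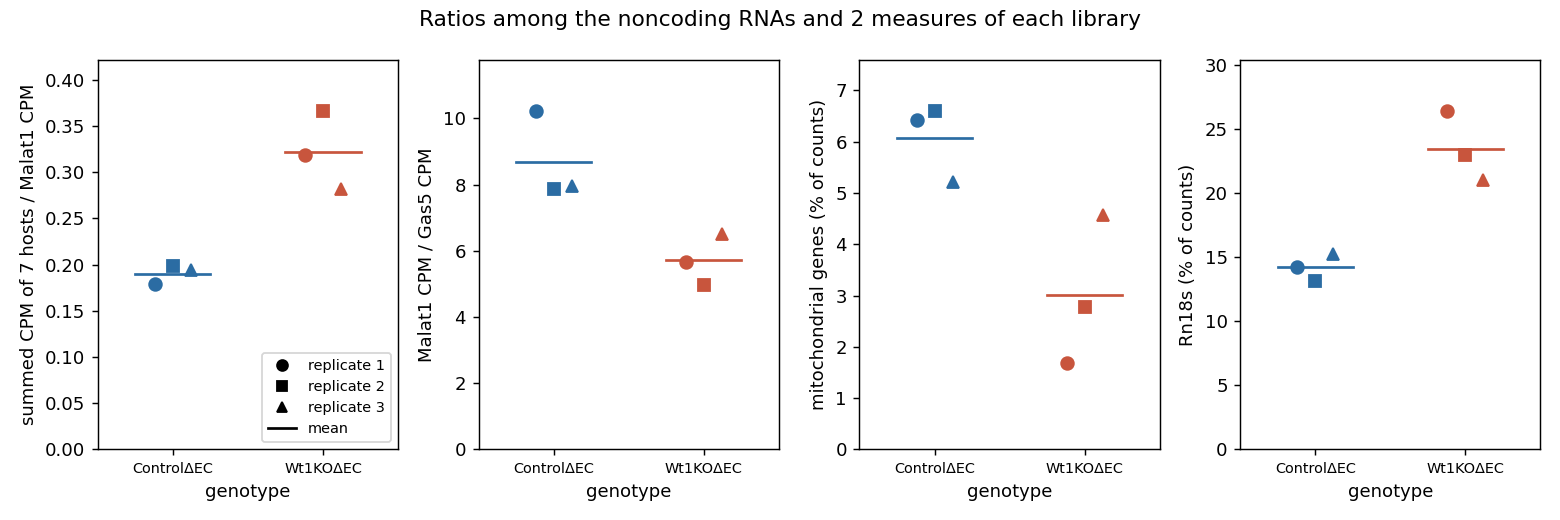
Values per library by genotype, from left to right the summed CPM of the 7 hosts over *Malat1*, *Malat1* over *Gas5*, the percent of counts from mitochondrial genes and the percent from *Rn18s*; symbols are replicates, bars are means and all axes start at 0. None of the 4 quantities overlaps between the genotypes, the first being at most 0.198 in *ControlΔEC* and at least 0.281 in *Wt1KOΔEC*. The first 2 are not separate measures, since *Gas5* is the larger part of the host sum.

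Markers of other cells moved as well, and their part in the result was not tested. The marker counts below stand beside 7.12% of all genes tested that were lower and 5.96% that were higher at an unadjusted p under 0.05 from edgeR. The 8 EC markers summed to between 4539 and 5766 CPM in *ControlΔEC* and between 4685 and 5402 CPM in *Wt1KOΔEC* (1 of 8 higher), and none of the 8 was at 0. The 7 macrophage markers summed to between 253 and 780 CPM in *ControlΔEC* and between 188 and 270 CPM in *Wt1KOΔEC*, and 5 of 7 were lower at an unadjusted p under 0.05 from edgeR. The 7 mural cell markers summed to between 176 and 364 CPM in *ControlΔEC* and between 141 and 160 CPM in *Wt1KOΔEC* (3 of 6 tested lower). The 7 fibroblast markers summed to between 678 and 979 CPM in *ControlΔEC* and between 1344 and 1549 CPM in *Wt1KOΔEC* (5 of 7 higher), and the 4 endocardial markers to between 241 and 330 and between 550 and 666 CPM (2 of 4 higher). By its rule for a call, edgeR called 1 fibroblast and 1 endocardial marker, beside 0.0736% of all genes tested. The 7 erythroid markers reached between 6567 and 14340 CPM in *ControlΔEC* and between 5104 and 8490 CPM in *Wt1KOΔEC* (1 of 7 higher and 2 lower). The 6 epicardial markers, *Wt1* among them, summed to between 119 and 165 and between 34.5 and 58.8 CPM (2 higher and 1, *Wt1*, lower at an unadjusted p under 0.05 from edgeR), and without *Wt1* to between 8.94 and 16.1 and between 16.1 and 44.8 CPM. The 7 cardiomyocyte markers summed to between 184 and 253 and between 151 and 336 CPM (0 of 6 tested with such a p), and the 4 lymphatic markers to between 267 and 283 and between 277 and 370 CPM (1 of 4 higher). No marker was at 0 in all libraries. In such bulk samples fewer cells of a type and less RNA per cell cannot be told apart.

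Levels were compared between genes per kb of exonic length. In *ControlΔEC*, *Malat1* was first at 143 ± 15.9 CPM per kb and *Gas5* second at 31.5 ± 7.55 CPM per kb (SD, n = 3), and neither overlapped the gene next in order. *Snhg5* (7.70 ± 0.80), *Snhg1* (7.02 ± 1.22) and *Snhg8* (6.79 ± 0.83 CPM per kb) came next and overlapped each other. *Snhg3* (4.74 ± 1.53) overlapped *Snhg8* above and *Neat1* (3.41 ± 1.91) below it, and *Neat1* also overlapped *Snhg12* (1.59 ± 0.17 CPM per kb). *Snhg6* was last at 0.817 ± 0.102 CPM per kb, below all libraries of *Snhg12*. In *Wt1KOΔEC*, *Malat1* was still first at 74.6 ± 16.1 and *Gas5* second at 24.2 ± 1.91 CPM per kb, followed by *Snhg8* at 8.72 ± 0.73 CPM per kb, and *Neat1* was last but one at 0.828 ± 0.451 CPM per kb, overlapping *Snhg6* at 0.702 ± 0.117 CPM per kb. The place of *Neat1* depends on the length used, since its annotated long form covers 22397 bases. Scaled by median transcript length, an alternative chosen after seeing the data, it took place 3 of the 9 in *ControlΔEC*.

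Some reads of these genes could be assigned to overlapping models, because the libraries do not mark strand. *Gm37376*, on the opposite strand inside *Malat1* with 453 shared exonic bases, was at 155, 218 and 255 CPM in *ControlΔEC* and 166, 127 and 167 CPM in *Wt1KOΔEC* (log2 fold change -0.45, unadjusted p = 0.0597 from edgeR). *Malat1* and *Gm37376* summed to 1141, 1393 and 1478 CPM in *ControlΔEC* and 743, 595 and 888 CPM in *Wt1KOΔEC*, still without overlap, and the log2 fold change of the sum was -0.85 (adjusted p = 0.140 from edgeR). *Zbtb37*, a zinc finger gene whose start lies 626 bases from that of *Gas5* on the other strand, with 134 shared exonic bases, was at 13.4, 10.1 and 8.11 CPM in *ControlΔEC* and 7.47, 2.95 and 3.56 CPM in *Wt1KOΔEC*. Its log2 fold change was -1.18 (standard error 0.46, unadjusted p = 0.0298, adjusted p = 0.327 from edgeR), without overlap between the genotypes.

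*Slc3a2*, divergent from *Snhg1* with 743 shared exonic bases, encodes the heavy chain of amino acid transporters and had a log2 fold change of 0.12. *Rcc1*, which encodes the exchange factor of Ran, is on the strand of *Snhg3* with starts 46 bases apart and 633 shared exonic bases, and it was at 30.2, 51.1 and 31.1 CPM in *ControlΔEC* and at 43.4, 43.5 and 48.0 CPM in *Wt1KOΔEC* (log2 fold change 0.26). *Snhg3* was therefore the smaller share of the reads at that locus, with a ratio to *Rcc1* of 0.212, 0.0742 and 0.122 in *ControlΔEC* and 0.118, 0.113 and 0.112 in *Wt1KOΔEC*. *Gm17300*, opposite *Snhg3*, was at -1.15 on the log2 scale (standard error 0.66), and *Mcmdc2*, opposite *Snhg6*, was below 1 CPM in all libraries. *Sgk3*, whose span partly overlaps that of *Snhg6* with 0 shared exonic bases, was at 26.2, 28.2 and 37.4 CPM in *ControlΔEC* and at 37.6, 48.4 and 49.8 CPM in *Wt1KOΔEC* (log2 fold change 0.57, unadjusted p = 0.0284 from edgeR). Within 100 kb on either side of the *Malat1* and *Neat1* pair, 15 other genes were tested. Their median log2 fold change was 0.21, and 4 of them were lower in *Wt1KOΔEC*.

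The proteins and RNAs that share pathways with these RNAs were counted in 7 lists, and none of their genes was called by edgeR. Of 9 other nuclear-enriched lncRNAs tested, 3 were lower and 0 higher at an unadjusted p under 0.05 from edgeR, with a list median of -0.47. Over all genes tested, 7.12% were lower at this threshold and 5.96% higher. *Firre*, an X-linked nuclear RNA, was at 28.9, 54.4 and 23.6 CPM in *ControlΔEC* and 18.5, 22.8 and 10.4 CPM in *Wt1KOΔEC* (log2 fold change -1.05). *Kcnq1ot1*, an imprinted antisense RNA, was at 21.8, 32.5 and 28.2 CPM in *ControlΔEC* and 8.21, 14.1 and 21.8 CPM in *Wt1KOΔEC* (-0.90). The third was *Rian* (-1.20), an imprinted snoRNA and microRNA host below 10 CPM, named after its value was seen. *Tug1* (0.20) and *Airn* (0.01) had overlapping genotypes, and *Tug1* was at 88.5, 122 and 198 CPM in *ControlΔEC* and 140, 174 and 156 CPM in *Wt1KOΔEC*.

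Among the bodies that the nuclear RNAs belong to, the 10 paraspeckle proteins had a median log2 fold change of 0.19 and 0 of 10 had an unadjusted p under 0.05. *Sfpq*, which binds *Neat1*, was at 64.7, 61.1 and 79.9 CPM in *ControlΔEC* and 75.8, 74.2 and 87.7 CPM in *Wt1KOΔEC* (0.21), and the genotypes overlapped for *Sfpq*, *Nudt21* (0.38) and *Hnrnph3* (0.29) but not for *Tardbp* (0.22), which was higher in each *Wt1KOΔEC* library. The 10 nuclear speckle and SR proteins had a median of -0.14. At an unadjusted p under 0.05 from edgeR 3 of them were lower, beside 7.12% of all genes tested. *Srrm2*, a core scaffold of speckles, was at 160, 243 and 172 CPM in *ControlΔEC* and 105, 129 and 110 CPM in *Wt1KOΔEC* (log2 fold change -0.74, adjusted p = 0.209 from edgeR), and it was the gene of this list that DESeq2 called. *Son*, the other speckle scaffold, was at 194, 270 and 233 CPM in *ControlΔEC* and 148, 164 and 180 CPM in *Wt1KOΔEC* (-0.50). The splicing factors *Srsf1* (-0.81) and *Srsf2* (-0.54) had genotypes that overlapped, *Srsf1* with and *Srsf2* without an unadjusted p under 0.05.

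On the side of the snoRNA hosts, further noncoding hosts had a median close to that of the 7 RNAs, and protein-coding hosts had a higher one. Of 14 further noncoding hosts listed, 12 gene models were tested, *Snhg4* with a pair of models, and their median log2 fold change was -0.01. *Zfas1* was higher, at 24.4, 18.3 and 20.6 CPM in *ControlΔEC* and 30.2, 28.0 and 33.5 CPM in *Wt1KOΔEC* (0.54, unadjusted p = 0.0340 from edgeR), and one model of *Snhg4*, named after its value was seen, was lower (-1.05, unadjusted p = 0.0224 from edgeR), while *Snhg17* (-0.42) and *Snhg15* (-0.06) overlapped. Of 32 protein-coding hosts, mostly ribosomal protein and translation factor genes, 19 were higher and 0 lower at an unadjusted p under 0.05 from edgeR, beside 5.96% of all genes tested that were higher, and 23 had every *Wt1KOΔEC* library above every control library, beside the 10.3% of all genes given above. Their median was 0.42, and DESeq2 called 4, all higher: *Rpl13* (log2 fold change 0.79), *Rpl7a* (0.60), *Rps2* (1.11) and the chaperone gene *Hspa8* (0.61). *Rpl13* was at 770, 715 and 656 CPM in *ControlΔEC* and 1439, 1123 and 1137 CPM in *Wt1KOΔEC*. Whether protein-coding and noncoding hosts differ in their change was not tested.

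The genes of proteins that assemble on the snoRNAs had a median above 0, like the protein-coding hosts. Of 10 snoRNP proteins, 4 were higher and 0 lower at an unadjusted p under 0.05 from edgeR, beside 5.96% of all genes tested that were higher. Their median log2 fold change was 0.36, and DESeq2 called 3 (*Nhp2*, *Fbl* and *Nop10*). *Nhp2*, an H/ACA core protein, was at 30.4, 37.8 and 25.3 CPM in *ControlΔEC* and 74.3, 54.0 and 55.6 CPM in *Wt1KOΔEC* (0.97, unadjusted p = 0.00160 and adjusted p = 0.163 from edgeR). *Fbl*, the methyltransferase of box C/D particles, was at 41.6, 45.1 and 38.2 CPM in *ControlΔEC* and 71.9, 58.6 and 58.7 CPM in *Wt1KOΔEC* (0.60), *Nop10*, also of H/ACA particles, had a log2 fold change of 0.67, and *Nop58*, of box C/D particles and itself a snoRNA host counted in both lists, 0.61. Of 10 nonsense-mediated decay factors, which act on spliced host exons, 1 was lower at an unadjusted p under 0.05 from edgeR, the kinase gene *Smg1* (-0.44). This count stands beside 7.12% of all genes tested that were lower, and the list median was -0.22. *Upf2* was at 34.7, 30.0 and 30.1 CPM in *ControlΔEC* and 16.3, 21.2 and 27.9 CPM in *Wt1KOΔEC* (-0.54, unadjusted p = 0.0569 from edgeR), and the genotypes overlapped for *Smg5* (-0.29).

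**Figure D4:**
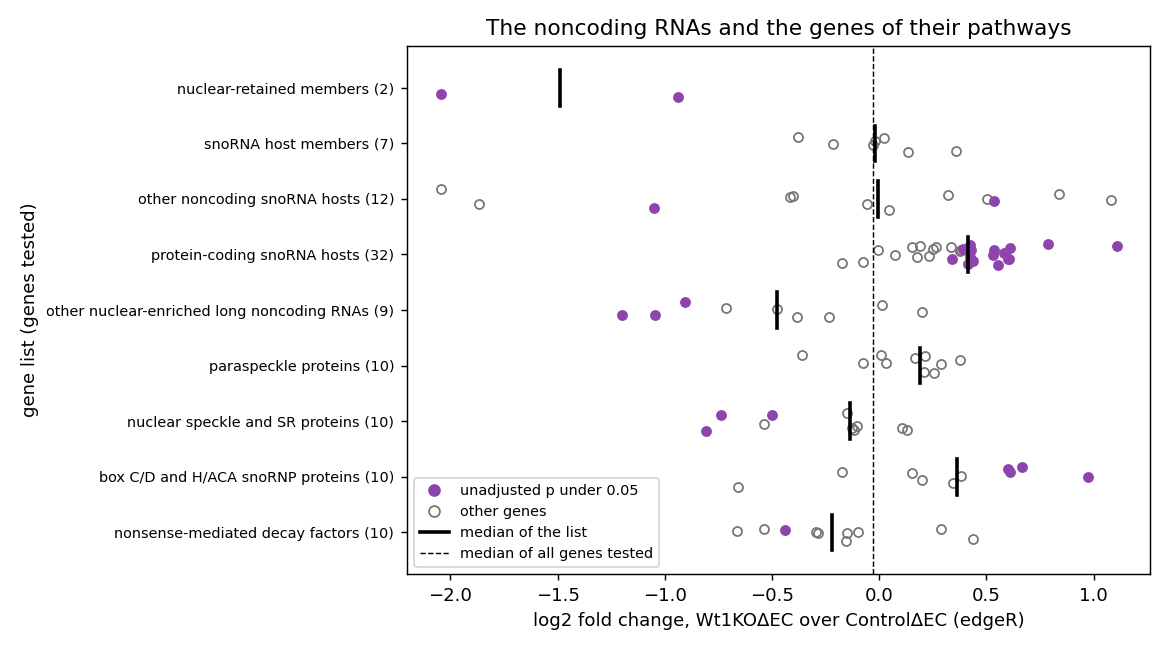
Log2 fold change of each tested gene (points) by list, with the list median as a bar and genes with an unadjusted p under 0.05 from edgeR filled; vertical jitter is for display. The protein-coding hosts are shifted to the right of the dashed median of all genes (median 0.42 against -0.03), and the 7 host RNAs and the further noncoding hosts are centred on it.

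Likeness across the 6 libraries was measured as the root mean square difference of centred log2 CPM, among the 8470 genes that averaged 10 CPM or more, and is descriptive. Nearest to *Malat1* were *Elmo1* (0.112), an adaptor of Rac activation, *Nufip2* (0.116), an RNA-binding protein gene, and *Rb1* (0.131), the retinoblastoma cell cycle repressor. *Neat1* had no such close match, its nearest genes being *Gsap* (0.498), *Uvssa* (0.499) and *Lilr4b* (0.504). *Lilr4b*, an immunoglobulin-like receptor gene of myeloid cells, was at 88.8 ± 60.0 CPM in *ControlΔEC* and 21.5 CPM on average in *Wt1KOΔEC*. Nearest to *Gas5* were *Eea1* (0.082), an early endosome tether, *Atrx* (0.091), a chromatin remodeller, and *Cdk12* (0.094), a kinase of RNA polymerase II. Among the 9 RNAs themselves, the closest pair was *Snhg5* with *Snhg6* (0.155). *Malat1* was nearer to every host, from *Gas5* (0.346) to *Snhg8* (0.693), than to its neighbour *Neat1* (0.830). *Neat1* was also far from every host, from *Gas5* (1.003) to *Snhg3* (1.445). The measure is not scaled to the spread of each gene, which within each genotype was widest for *Neat1*. These distances therefore do not show whether *Malat1* and *Neat1* rise and fall together.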

How the data were processed

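RNA-Seq of sorted coronary ECs was analysed, with 3 *ControlΔEC* and 3 *Wt1KOΔEC* libraries grouped by the sample labels. The authors made SMART-seq2 libraries (oligo-dT primed, without strand or molecular identifiers), mapped them with STAR 2.7.8a and estimated expected counts per gene with RSEM 1.3.0 on a GENCODE annotation. These deposited expected counts are whole numbers without normalization. The study's methods name the genome build GRCm39 and the submitters' processing notes name GRCm38. The 9 genes and all lists were chosen with earlier results of these data known. Genes reaching 10 counts in 2 or more libraries were tested with edgeR 4.0.16 (R 4.3.3, TMM, quasi-likelihood F test, Benjamini-Hochberg adjustment over all genes tested). Standard errors were taken from the fold change and F. The biological replicates are separate samples per the labels, and intervals and floors cover counting error or the spread between libraries only. No per-sample column was left unmapped (0).

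The counts were made on GENCODE vM27, and positions, lengths, shared bases and snoRNA loci are from the later vM39 on GRCm39, so levels per kb and overlaps may differ from those of the counted models (54749 of 55416 identifiers matched without version), and promoters are from RefSeq. Genes named are the 9 RNAs, *Wt1*, genes overlapping them or starting within 1 kb, up to 4 genes per list with the smallest p at a mean of at least 10 CPM, and the 3 nearest genes to *Malat1*, *Neat1* and *Gas5*; some genes that this rule names are not reported here. Alternatives were DESeq2 1.42.0, limma-voom 3.58.1, other normalizations and filters, offsets for length and GC content, the replicate number as a block and each library left out. The steps were tested on simulated data.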

Additional observations from a re-analysis of the deposited data

How the results depend on the processing

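In edgeR and voom fits no adjusted p of *Malat1* or *Neat1* passed 0.05 unless the filter on low counts was removed, and their direction was the same in all 18 and 17 alternatives. The count of genes called, 12 in the edgeR fit given above, was 296 without the filter, 767 with DESeq2 and 1652 at an unadjusted p. It was 5 with the replicate number as a block (5 also with length and GC offsets and the block). The count was 4, 26 and 37 without *ControlΔEC* replicate 1, 2 or 3, and 3, 3 and 2 without *Wt1KOΔEC* replicate 1, 2 or 3. Of the 9 RNAs, 2 were called without the filter, with DESeq2 and at an unadjusted p, where *Malat1* was at -0.94 and *Neat1* at -2.04 on the log2 scale. With single libraries left out, *Malat1* ran from -1.11 to -0.80 (adjusted p from 0.139 to 0.423 with edgeR) and *Neat1* from -2.54 to -1.66 (0.155 to 0.501). The paired numbers are not a shared litter or day in the labels, and deviations of same-numbered libraries correlated at 0.057, 0.0045 and 0.020, with not every library nearest to its own number. In the fit with the replicate block, *Malat1* was at -0.95 and *Neat1* at -1.98 (adjusted p = 0.145 and 0.0588 with edgeR).

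The sign turned for 4 hosts, none of them called. *Snhg1* was at 0.0044 with upper-quartile factors and 0.015 with length and GC offsets and the block, and ran from -0.13 to 0.12 with single libraries left out. *Snhg3* was at -0.00066 and *Snhg12* at -0.13 with library size only, which moved the median of all genes from -0.03 to -0.18. The class medians stayed 1.47 apart there, because a change of library scaling shifts all genes nearly alike. They were 1.32 apart with length and GC offsets. Leaving out single libraries gave between 1.23 (without *ControlΔEC* replicate 3) and 1.71 (without *Wt1KOΔEC* replicate 3). With single libraries left out *Gas5* ran from -0.56 (without *ControlΔEC* replicate 1) to -0.26, *Snhg3* from 0.0063 to 0.44 (without *ControlΔEC* replicate 1), *Snhg5* from -0.11 to 0.062 and *Snhg12* from -0.078 to 0.086. In the order of levels per kb, 5 of 9 genes kept their place with the longest transcript and 2 with the median transcript. *Snhg3*, *Snhg6* and *Snhg12* had between 107 and 287 counts per library and standard errors of 0.46, 0.47 and 0.45. The part of depth in the width of their intervals was not tested.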
